A study of Mus musculus with 6 samples.

Results

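Muscle stem cells (MuSCs) of Sirt6mKO/mdx mice were compared with MuSCs of mdx mice in 4 of the 6 RNA-seq libraries of the study, chosen by their group labels, with 2 libraries a group. Protein-coding genes were described, which made up 16849 of the 22706 genes of the deposited table, and 13619 of them were abundant enough to be tested (mean normalised read count of at least 5 over the 6 libraries). Both groups carried the mdx mutation of the dystrophin gene on the X chromosome (C57BL/10ScSn-Dmdmdx/J), a model of Duchenne muscular dystrophy. Sirt6mKO/mdx mice in addition carried Sirt6 alleles with exons 4 to 6 flanked by loxP sites and a Cre recombinase expressed constitutively from the Pax7 locus (Pax7-ICNCre), so that the deletion took place early in the muscle lineage and reached myofibres as well as MuSCs. The remaining 2 libraries came from control mice with neither change, and their values are given beside the others. The labels name the strain as C57BL/6 for all groups and give no age for these samples, while the study's legends speak of adult male mice. After enzymatic digestion of muscle, cells with the surface proteins Sca1, CD45 or CD31, which mark fibro-adipogenic, blood and endothelial cells, were removed on magnetic beads, and MuSCs were then sorted by flow cytometry, either by surface markers or by a reporter, and the gate used for each library was not given in the sources used here.

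MuSCs lie between the myofibre and its basal lamina, express the transcription factor PAX7 and stay quiescent until damage activates them. In mdx muscle the lack of dystrophin leads to repeated damage and regeneration, so that MuSCs are activated over and over. SIRT6 is a nuclear, NAD-dependent enzyme of the sirtuin family that removes acetyl groups from histone H3, including lysine residues at promoters, and is known as a repressor of glycolytic, NF-kB and stress response genes in other cell types.

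The libraries held between 4771670 and 9744261 approximate reads on genes, but those on protein-coding genes were fewer in the Sirt6mKO/mdx libraries (2469002 and 2043732) than in the mdx libraries (6052601 and 4753821). Small noncoding RNAs took 44.4% and 48.0% of the summed values in Sirt6mKO/mdx against 26.5% and 19.0% in mdx. The authors' scaling nevertheless left the summed protein-coding values of the groups close to each other (3821097 and 3804770 in Sirt6mKO/mdx, 3964110 and 3695733 in mdx). Across protein-coding genes, which are not independent replicates, the Sirt6mKO/mdx libraries correlated with r = 0.937 and the mdx libraries with r = 0.945, while libraries of different groups reached at most 0.902. All 9 MuSC markers were detected in every library, and their summed value was 16341 and 18390 in Sirt6mKO/mdx and 21235 and 17979 in mdx. The sum over 13 leukocyte markers, 7 of them abundant enough to be tested, was 273 and 250 in Sirt6mKO/mdx against 168 and 119 in mdx, with 0 and 2 of the 13 at 0 in the former and 0 and 1 in the latter. Ptprc, which encodes CD45, measured 3 and 19 against 5 and 3. The sum over 10 endothelial markers, 7 of them tested, was 151 and 199 against 62 and 110, with 2 of the 10 at 0 in each library. No tested marker of these 2 lists was called. Of 6 erythroid markers, 3 of them tested, Hbb-bs was called higher (17 and 54 against 2 and 2, 3.39 ± 0.91), and their sum was 45 and 95 against 9 and 17. That call was lost in every fit that left out 1 library. Of 9 smooth muscle and pericyte markers Tagln was called lower (201 and 328 against 534 and 1081, -1.56 ± 0.35), while their sum was 5930 and 7204 against 6804 and 6896. Tagln kept its call only without mdx replicate 1 among those fits.

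Sirt6 itself (ENSMUSG00000034748; GRCm38 chromosome 10, 81621785 to 81627797, minus strand) was examined first. The libraries labelled Sirt6mKO/mdx gave a normalised read count of 37 and 30 for it, beside 33 and 40 for the mdx pair and 41 and 32 for the control pair. The groups overlapped, and the log2 fold change was -0.12 ± 0.50 (SE; limma, adjusted p = 0.912). Exons 4 to 6 make up 237 of the 1891 bases (12.5%) of the principal transcript, and the deposited value is a sum over the whole gene and cannot show whether these exons were deleted. The paper reports from PCR genotyping that Sirt6 was efficiently deleted in MuSCs of Sirt6mKO mice. It also measured Sirt6 by RT-qPCR in MuSCs of control, mdx and Sirt6mKO/mdx mice and found differences. Neither is a measure of the libraries used here. The group is therefore taken from its label, and every direction given here rests on that label. The flanked exons are shown from the GENCODE transcript sequence, with capitals marking the 4 cysteine codons in the reading frame, which encode the residues that hold the zinc ion of SIRT6.
Sirt6 exon 4 (chromosome 10, 81625057 to 81625116): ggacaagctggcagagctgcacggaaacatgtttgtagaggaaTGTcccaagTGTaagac
Sirt6 exon 5 (chromosome 10, 81624147 to 81624242): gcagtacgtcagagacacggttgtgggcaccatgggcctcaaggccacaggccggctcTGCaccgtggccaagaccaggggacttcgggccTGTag
Sirt6 exon 6 (chromosome 10, 81623992 to 81624072): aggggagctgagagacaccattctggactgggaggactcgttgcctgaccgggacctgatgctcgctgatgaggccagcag

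Gene expression differed widely between the groups. Many of the immediate early, heat shock, and NF-kB pathway and cytokine genes were higher in Sirt6mKO/mdx, and part of the matrix and cholesterol synthesis genes were lower. A gene was called when it changed by at least 1 on the log2 scale with an adjusted p of 0.05 or less (limma, Benjamini-Hochberg over all 15915 genes tested). By this rule 638 protein-coding genes (4.68%) were higher and 401 (2.94%) were lower in Sirt6mKO/mdx than in mdx. Over all gene types 895 genes (5.62%) were higher and 405 (2.54%) lower. Both Sirt6mKO/mdx libraries lay above both mdx libraries for 3533 protein-coding genes (25.9%) and below both for 4110 (30.2%), which is the background for the statements on overlap that follow. Higher genes moved further than lower genes: 261 of the former and 39 of the latter had an absolute log2 fold change of at least 2. The median group mean of the called higher genes was 102 in mdx, 316 in Sirt6mKO/mdx and 312 in control, and that of the called lower genes was 377, 154 and 221. Since the mdx libraries entered the choice of these genes, their distance from control is in part a result of that choice. Scaling each library to its total over all genes, small noncoding RNAs included, moved the median log2 fold change of protein-coding genes from -0.04 to -0.66 and the calls to 309 higher and 2890 lower, so that directions here are relative to the other protein-coding genes. Leaving out 1 library at a time left 150 to 293 higher and 21 to 52 lower protein-coding genes, the fewest without Sirt6mKO/mdx replicate 1, and a limma fit with a single prior variance for all genes called none (2479 protein-coding genes at an unadjusted p under 0.05, against 3381 in the fit used here).

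**Figure D1:**
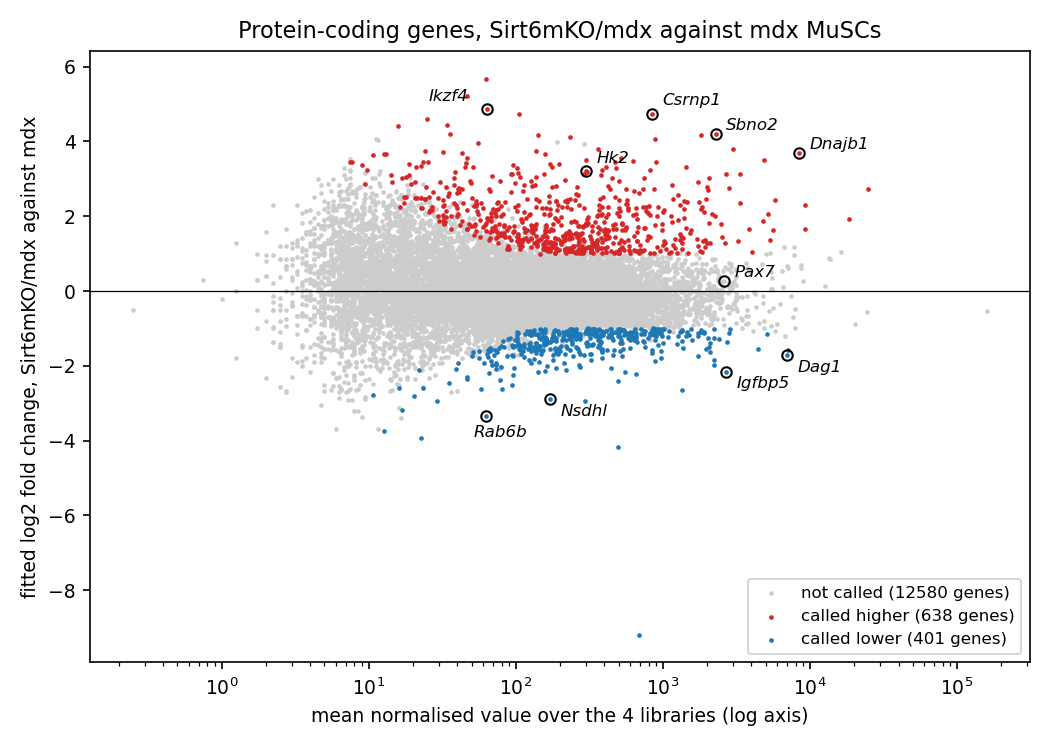
Fitted log2 fold change of Sirt6mKO/mdx against mdx (y axis) for each of the 13619 protein-coding genes tested, plotted against the mean normalised value over the 4 libraries (x axis, log scale). Red points are the 638 genes called higher and blue points the 401 called lower, and red points reach further from 0 than blue points over most of the range of levels, apart from 1 blue point at -9.18 (-10.18 to -8.18 with 1 library left out), Rpsa-ps10, a pseudogene by its symbol that the table types as protein-coding.

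Immediate early genes, many of which encode transcription factors, are induced within minutes of a signal without new protein synthesis, through pre-formed factors such as SRF and CREB. They are also known to respond to the enzymatic digestion of muscle, and the length of digestion of each library was not given in the sources used here. The list used here was made with earlier results of these data known. Some members, such as Ier3 and Arc, do not encode transcription factors. Of its 31 genes tested, 26 rose and none fell, with a median log2 fold change of 2.29 beside -0.04 over all protein-coding genes tested. No overlap between the groups was seen for 30 of them. Csrnp1, a nuclear protein of the cysteine-serine-rich family, had a normalised read count of 1679 and 1577 in Sirt6mKO/mdx, 53 and 68 in mdx and 3859 and 3294 in control. Its log2 fold change against mdx was 4.74 ± 0.24 (SE, adjusted p = 7.19e-08). The orphan nuclear receptor gene Nr4a1 measured 3436 and 3416 in Sirt6mKO/mdx, 163 and 219 in mdx and 5322 and 6521 in control (log2 fold change 4.17 ± 0.26). Atf3, a stress-induced factor of the ATF/CREB family, measured 1391 and 1925 against 77 and 121 in mdx, with 3264 and 5358 in control. In each of these genes the Sirt6mKO/mdx libraries lay far above the mdx libraries and below both control libraries.

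Ikzf4, which encodes the zinc-finger repressor Eos, measured 130 and 115 in Sirt6mKO/mdx, 1 and 8 in mdx and 181 and 143 in control. Its log2 fold change was 4.86 ± 0.61, and the first mdx value lies below what 3 reads would give in that library (1.97). Without mdx replicate 1 the fold change was 3.78, and without mdx replicate 2 it was 5.95. Ier3, an early gene that protects from apoptosis, measured 735 and 622 against 56 and 41 (log2 fold change 3.79 ± 0.36). Nr4a2 measured 370 and 160 against 30 and 5 (log2 fold change 4.16 ± 0.59), and it lost its call without Sirt6mKO/mdx replicate 1 (3.56). Its fold change was 5.35 without mdx replicate 1, 2.98 without mdx replicate 2 and 4.77 without Sirt6mKO/mdx replicate 2. The AP-1 genes were named after their values were seen. Fos measured 8993 and 10412 against 1654 and 1921, Fosb 9323 and 8506 against 713 and 862, and Junb 5643 and 6341 against 579 and 795. All 3 were called and none overlapped between the groups. Klf10 was the only immediate early gene with a fold change below 0 (467 and 491 against 608 and 391, log2 fold change -0.03). Without 1 library at a time, between 18 and 22 of the 31 genes were still called, the fewest without Sirt6mKO/mdx replicate 2.

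Of 28 MAPK phosphatases and other feedback genes tested, which switch such signals off, 10 rose and none fell (median log2 fold change 1.04). Dusp8, a phosphatase of the stress kinases JNK and p38, measured 283 and 227 in Sirt6mKO/mdx, 17 and 19 in mdx and 447 and 450 in control (log2 fold change 3.75 ± 0.31, adjusted p = 3.81e-06). Trib1, a pseudokinase that directs C/EBP factors to degradation, measured 1333 and 1621 against 189 and 128 (3.23 ± 0.26 on the log2 scale). Sik1, a salt-inducible kinase that curbs CREB coactivators, measured 4011 and 2934 against 434 and 582 (2.77 ± 0.28). The ERK phosphatase gene Dusp5 (200 and 264 against 16 and 60) was called over all libraries with 2.84, but not without Sirt6mKO/mdx replicate 1 (3.04) or 2 (2.64), and its fold change lay at 1.92 when mdx replicate 1 was left out and at 3.76 when mdx replicate 2 was. Among 27 regulators of mRNA decay 5 rose and none fell, with 13 above 0, 14 below 0 and a median of -0.09. When libraries were scaled to their totals 3 were called higher and 10 lower (median -0.71). Btg2, an antiproliferative protein that recruits the CCR4-NOT deadenylase, measured 4982 and 6248 in Sirt6mKO/mdx, 432 and 374 in mdx and 5489 and 5385 in control (log2 fold change 3.79 ± 0.27). Zfp36 encodes tristetraprolin, which binds AU-rich elements of cytokine mRNAs, and measured 1311 and 1337 against 155 and 170 (3.02 ± 0.23). Both genes lay above mdx in either Sirt6mKO/mdx library. Tob1, a relative of Btg2, measured 362 and 395 against 130 and 148 (1.44 ± 0.25) and lost its call without Sirt6mKO/mdx replicate 1 (1.50) or 2 (1.38). With 1 library left out, 7 to 10 of the 28 feedback genes and 2 to 4 of the 27 decay genes were called.

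The cAMP response element (CRE), to which CREB and ATF factors bind, was searched as TGACGTCA in the 250 bases before the transcription start (RefSeq, GRCm38.p6) of the 10089 tested protein-coding genes with a promoter in the table. It was present in 2.95% of all of these, in 4.83% of 476 called higher genes, in 2.64% of 303 called lower genes and in 3 of 21 MAPK feedback genes (14.3%). In the 23 immediate early genes with a promoter, 1 held it. A match is a description of the letters and not of binding. The promoters of Btg2 and Dusp8 are shown as those of called higher genes that hold the element, which is in capitals. It also stands in the promoter of Mcm5, a called lower gene shown with the replication genes.
Btg2 promoter (chromosome 1, 134079156 to 134079405, minus strand): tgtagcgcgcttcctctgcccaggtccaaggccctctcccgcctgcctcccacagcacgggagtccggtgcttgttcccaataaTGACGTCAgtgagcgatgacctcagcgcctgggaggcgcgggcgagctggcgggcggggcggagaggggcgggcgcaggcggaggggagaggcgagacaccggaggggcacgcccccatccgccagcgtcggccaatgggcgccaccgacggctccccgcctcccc
Dusp8 promoter (chromosome 7, 142095285 to 142095534, minus strand): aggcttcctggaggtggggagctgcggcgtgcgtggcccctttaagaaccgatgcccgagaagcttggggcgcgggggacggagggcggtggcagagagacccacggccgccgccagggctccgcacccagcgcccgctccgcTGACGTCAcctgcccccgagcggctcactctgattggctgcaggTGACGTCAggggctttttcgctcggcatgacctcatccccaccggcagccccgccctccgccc
The element starts 166 bases before the annotated start of Btg2, and 107 and 63 bases before that of Dusp8.

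**Figure D2:**
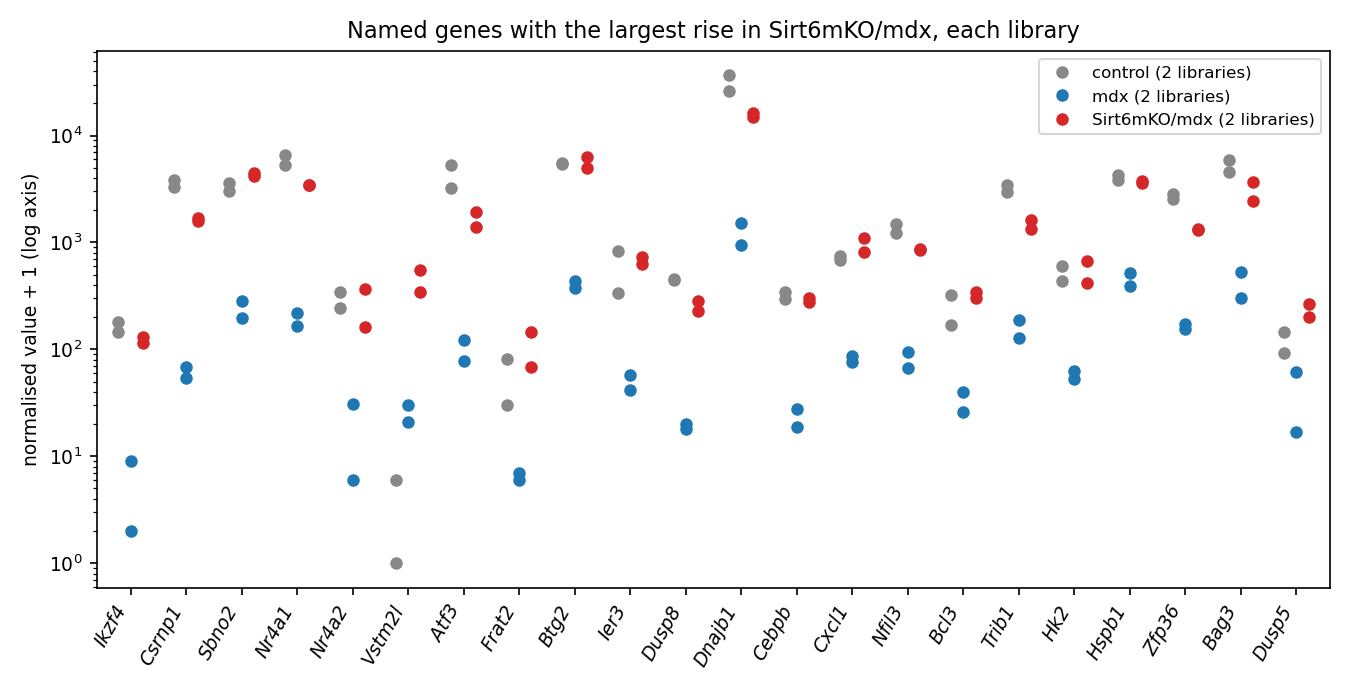
Normalised value plus 1 (y axis, log scale) of the 22 named genes with the highest fold change, in each library (points) of the control (grey), mdx (blue) and Sirt6mKO/mdx (red) groups. Alb, which was high in 1 library, is left out. In every gene both red points lie above both blue points, and in all but Vstm2l the grey points lie above the blue points as well.

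Chaperones keep proteins folded, and those of the heat shock response are induced by HSF1 after heat and other proteotoxic stress. Of 29 heat shock genes tested, 15 rose, none fell and 14 were not called (median log2 fold change 1.18). Dnajb1, the HSP40 co-chaperone that delivers clients to HSP70, measured 15031 and 16194 in Sirt6mKO/mdx, 942 and 1533 in mdx and 26187 and 36763 in control (3.70 ± 0.40, adjusted p = 5.23e-05). The small heat shock protein gene Hspb1 measured 3759 and 3563 against 394 and 513 (3.02 ± 0.26). Bag3, a nucleotide exchange factor that links HSP70 to autophagy of filamin in muscle, measured 3704 and 2435 against 302 and 532 (2.90 ± 0.32). The groups did not overlap in any of these genes. The mitochondrial chaperonin subunit Hspe1 measured 1600 and 1460 against 401 and 262 (2.23 ± 0.26), and the co-chaperone Dnajb4 1955 and 2621 against 482 and 516 (2.18 ± 0.26). Hsph1, an HSP110 exchange factor, measured 37345 and 48416 against 4435 and 9300 (2.73 ± 0.63). It lost its call without mdx replicate 1 (2.19) and without Sirt6mKO/mdx replicate 1 (2.91) or 2 (2.54). The inducible HSP70 genes Hspa1a and Hspa1b are near-identical copies, so that their separate values are uncertain. Without 1 library at a time, 6 to 10 of the 29 genes were still called, the fewest without either Sirt6mKO/mdx library.

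The unfolded protein and integrated stress response moved in both directions, with 6 of 30 genes higher and 4 lower (median -0.23). Among the higher genes, Cebpb, which encodes the factor C/EBPbeta, measured 279 and 303 against 18 and 27 in mdx (3.66 ± 0.32, and 2.71 after centring by GC content). Ppp1r15a, which encodes GADD34, the regulatory subunit that restores translation, measured 2105 and 2236 against 362 and 369 (2.57 ± 0.24). The ER co-chaperone gene Dnajb9 measured 675 and 944 against 225 and 173 (2.01 ± 0.29). Hspa5, which encodes BiP, the main ER chaperone, measured 9640 and 7307 against 2727 and 2648 (1.64 ± 0.38) and lost its call without mdx replicate 1 (1.66) or 2 (1.62) and without Sirt6mKO/mdx replicate 1 (1.44) or 2 (1.84). The 4 lower genes, named after their values were seen, were Canx, Pdia3, Pdia4 and Hsp90b1, which fold glycoproteins and secreted proteins in the ER. Canx measured 1220 and 1899 against 4044 and 3753, and Pdia4 283 and 298 against 834 and 702. None of these 4 was called in any fit that left out 1 library, where 3 or 4 of the 30 genes were higher.

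NF-kB is held in the cytoplasm by inhibitors that are themselves among its targets, and SIRT6 is known to act at NF-kB target promoters in other cells. Of 27 pathway members and cytokine genes tested, 15 rose and none fell (median 1.34). The neutrophil chemokine gene Cxcl1 measured 822 and 1098 in Sirt6mKO/mdx, 86 and 75 in mdx and 689 and 746 in control (3.55 ± 0.25, adjusted p = 1.11e-06). Genes of the IkB family rose with it: Nfkbia measured 969 and 1422 against 193 and 188 (2.62 ± 0.30) and Nfkbiz 1393 and 1156 against 180 and 203 (2.72 ± 0.28). Bcl3, an atypical IkB protein that acts in the nucleus, measured 340 and 303 against 25 and 39 (3.32 ± 0.36, and 2.69 after centring by GC content). The subunit genes moved less, with Rela at 1.02 and Relb at 1.63 on the log2 scale. They were named after their values were seen, and neither was called in any fit that left out 1 library (0.95 to 1.09 and 1.45 to 1.81), nor was Rela after centring by GC content (0.63). Sbno2, a helicase-like cofactor induced by interleukin-10 and interleukin-6, measured 4484 and 4159 in Sirt6mKO/mdx, 196 and 282 in mdx and 3607 and 3020 in control (4.19 ± 0.27, adjusted p = 3.61e-07). It lies on the chromosome of Sirt6, within 5 Mb of it, where 10% of 170 genes tested were called in either direction, beside 7.63% of all protein-coding genes tested. The leukocyte and endothelial sums given above also lay higher in Sirt6mKO/mdx, although such cells were removed on beads before the sort, and the part of any that remained in the cytokine values was not tested. In bulk libraries more cells of a type and more RNA per cell cannot be told apart. Without 1 library at a time, 5 to 9 of the 27 genes were called, the fewest without Sirt6mKO/mdx replicate 2.

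Growth arrest and damage genes were higher for 12 of 40 and lower for 1 (median 0.45, and -0.18 when libraries were scaled to their totals). The GADD45 family, which inhibits cell cycle progression and activates p38, rose in all 3 members: Gadd45g measured 765 and 709 against 94 and 117 (2.80 ± 0.25), Gadd45b 761 and 769 against 116 and 114 (2.72 ± 0.29) and Gadd45a 525 and 704 against 151 and 98 (2.31 ± 0.29). Plk3, a polo-like kinase of the stress response, measured 237 and 231 against 35 and 49 (2.47 ± 0.37). Cdkn1a, which encodes the cyclin-dependent kinase inhibitor p21, measured 449 and 413 in Sirt6mKO/mdx, 206 and 178 in mdx and 952 and 531 in control. Its log2 fold change was 1.17 ± 0.29 (adjusted p = 0.0208), and the call was lost in every fit that left out 1 library (1.06 to 1.27). Of the 40 genes 5 to 8 were called higher and none lower in these fits.

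Of 19 circadian clock genes 6 rose and none fell (median 0.53, and -0.10 when libraries were scaled to their totals). Nfil3, a repressor of D-box genes, measured 857 and 864 against 93 and 66 (3.44 ± 0.26), and Per1, a core repressor that is also a CREB target, measured 1377 and 1165 against 222 and 324 (2.23 ± 0.29). Per2 measured 184 and 188 against 45 and 40 (2.11 ± 0.42) and Bhlhe40 385 and 417 against 117 and 163 (1.53 ± 0.29). Without Sirt6mKO/mdx replicate 1 or 2 neither was called (2.12 and 2.09 for Per2, 1.59 and 1.47 for Bhlhe40), nor was either without mdx replicate 1 (2.19 for Per2 and 1.29 for Bhlhe40). Without mdx replicate 2, Per2 (2.02) also lost its call. With 1 library left out, 2 to 4 of the 19 genes were called. The time of day at which the cells were taken was not given in the sources used here.

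Glycolysis is known to be repressed by SIRT6 in other cells through HIF1A target promoters. In Sirt6mKO mice, without the mdx mutation, the paper reports no evidence that such genes were activated. Of 33 glycolysis and lactate genes 5 rose and 1 fell (median 0.28, and -0.33 when libraries were scaled to their totals). Hk2, the inducible hexokinase that commits glucose to glycolysis, measured 667 and 421 in Sirt6mKO/mdx, 52 and 62 in mdx and 434 and 601 in control (3.20 ± 0.30, adjusted p = 1.14e-05), and it kept its call in every fit that left out 1 library. Pdk4, a kinase that inhibits the pyruvate dehydrogenase complex, measured 432 and 506 against 171 and 100 (1.83 ± 0.28) and lost its call without Sirt6mKO/mdx replicate 2 (1.72). Pfkfb3, which makes the activator of phosphofructokinase, measured 424 and 451 against 141 and 125 (1.71 ± 0.35). The glucose transporter gene Slc2a1 measured 163 and 212 against 71 and 82 (1.27 ± 0.30). Pfkfb3 and Slc2a1 lost their calls in every fit that left out 1 library (1.63 to 1.80 and 1.08 to 1.46). The lactate dehydrogenase gene Ldha did not differ beyond the spread (978 and 1108 against 1228 and 806, log2 fold change 0.07 ± 0.28), nor did Pdk1 (48 and 45 against 48 and 30, 0.28 ± 0.43). Hk1, the constitutive hexokinase, was the gene that fell (300 and 279 against 471 and 727, -1.01 ± 0.30), and was named after its values were seen. It was not called in any of the 4 fits that left out 1 library (-1.33 to -0.70), where 1 to 3 of the 33 genes were called higher.

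Among the sirtuins, Sirt1 measured 458 and 545 in Sirt6mKO/mdx, 225 and 201 in mdx and 604 and 299 in control. Its log2 fold change was 1.23 ± 0.31 (adjusted p = 0.0227), and the call was lost in every fit that left out 1 library (1.10 to 1.35). Sirt2, Sirt3, Sirt4, Sirt5 and Sirt7 were not called, with log2 fold changes between -0.28 and 0.29. The NAD-consuming polymerase genes Parp1 (115 and 192 against 309 and 378, -1.20 ± 0.33) and Parp2 (80 and 73 against 176 and 168, -1.16 ± 0.31) fell. Both lost their calls in every fit that left out 1 library (-1.56 to -0.83 for Parp1, -1.23 to -1.09 for Parp2), and Parp2 also after centring by GC content (-1.01). Of 36 genes for histone acetylation and H3K56 chaperones 3 rose and 1 fell (median 0.03, and 0 and 5 with a median of -0.59 when libraries were scaled to their totals), close to the background in the scaling of the authors. The gene that fell was Cbx5, which encodes heterochromatin protein HP1alpha (484 and 512 against 1055 and 1194, -1.17 ± 0.26), and it lost its call in every fit that left out 1 library (-1.26 to -1.08) and after centring by GC content (-0.91). At most 1 of the 36 was called when 1 library was left out.

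Genes that define MuSCs were about as abundant in both groups. Pax7 measured 3236 and 2433 in Sirt6mKO/mdx and 2167 and 2521 in mdx (0.26 ± 0.28), Myf5 2945 and 3061 against 3258 and 2146 (0.18 ± 0.33), and Myod1 251 and 495 against 349 and 339 (0.04 ± 0.31). The groups overlapped in all 3. Of 42 genes of MuSC identity, niche and quiescence 5 rose and 5 fell (median 0.01), while 0 were called higher and 16 lower (median -0.62) when libraries were scaled to their totals. The paralogue Pax3 measured 180 and 331 against 94 and 68 (1.60 ± 0.34) and lost its call without mdx replicate 2 (1.37) or Sirt6mKO/mdx replicate 2 (1.16). Sdc4, a heparan sulfate co-receptor of MuSCs, measured 2753 and 2822 against 1100 and 1049 (1.38 ± 0.28), and lost its call without mdx replicate 2 (1.34) and without Sirt6mKO/mdx replicate 1 (1.39) or 2 (1.36). Lower genes included Cdh2, which encodes N-cadherin, by which MuSCs adhere to the myofibre (99 and 58 against 224 and 202, -1.48 ± 0.40). Cdh2 was lower in control still (27 and 43), and lost its call in every fit that left out 1 library (-1.86 to -1.10). Between 0 and 3 of the 42 genes were called higher and 0 to 2 lower when 1 library was left out.

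Dystrophin links actin to the matrix through the dystroglycan and sarcoglycan complexes. Of 26 genes of these complexes 2 rose and 4 fell (median -0.01). Dag1, which encodes dystroglycan, the receptor for laminin, measured 3631 and 2908 in Sirt6mKO/mdx, 10404 and 10977 in mdx and 8736 and 10961 in control. It was the most abundant gene among the named lower genes, with a log2 fold change of -1.72 ± 0.36 (adjusted p = 0.00865). It lost its call without mdx replicate 2 (-1.68) and without Sirt6mKO/mdx replicate 1 (-1.88) or 2 (-1.56). Sspn, which encodes sarcospan, measured 84 and 188 against 379 and 442 (-1.70 ± 0.44) and lost its call in every fit that left out 1 library (-2.27 to -1.12) and after centring by GC content (-1.51). Lama2, the laminin chain bound by dystroglycan, was named after its values were seen and measured 3191 and 3174 against 6856 and 7166, with 6799 and 7643 in control (-1.14 ± 0.32, and not called in any fit that left out 1 library, -1.17 to -1.11, or after centring by GC content, -0.99). Among the higher genes was Dtnb, a dystrobrevin (430 and 346 against 206 and 147, 1.14 ± 0.33), which was not called in any fit that left out 1 library (0.90 to 1.39). Dmd mRNA, which is still made from the mdx allele, was not called (2038 and 2435 against 2883 and 2627, -0.30 ± 0.27). Utrn, whose product utrophin can stand in for dystrophin, was not called either (2826 and 2428 against 2118 and 2796, 0.11 ± 0.28). At most 1 of the 26 genes was called when 1 library was left out.

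Genes of myogenic differentiation and the sarcomere were higher for 9 of 43 and lower for 1 (median 0.83). Myog, which drives terminal differentiation, was not among them (432 and 1232 in Sirt6mKO/mdx against 945 and 920 in mdx, -0.35 ± 0.42). The higher genes were those of mature myofibres, such as the myosin heavy chain genes Myh2 (1127 and 767 against 285 and 103, 2.43 ± 0.46) and Myh7 (1254 and 635 against 238 and 133, 2.32 ± 0.41) and the myoglobin gene Mb (1108 and 754 against 315 and 104, 2.33 ± 0.46). Leaving out mdx replicate 1 put Myh2 at 3.16 and Mb at 3.12, and leaving out mdx replicate 2 put them at 1.70 and 1.53. The sum over 12 myofibre markers was 37970 and 26987 in Sirt6mKO/mdx, 17240 and 13188 in mdx and 22389 and 43978 in control, with none of the 12 at 0 in any library, and the part of myofibre RNA in these values was not tested. Without mdx replicate 2 or Sirt6mKO/mdx replicate 1 none of the 43 genes was called.

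DNA replication genes, which MuSCs need once they leave quiescence, lay lower in Sirt6mKO/mdx, but few passed the test. Of 51 tested 5 fell and none rose (median -0.61). Mcm5, a subunit of the replicative helicase, measured 42 and 63 in Sirt6mKO/mdx, 176 and 227 in mdx and 54 and 84 in control (-1.94 ± 0.38, adjusted p = 0.00596), and lost its call without mdx replicate 2 (-1.75) or Sirt6mKO/mdx replicate 1 (-1.65). The helicase subunit gene Mcm6 measured 152 and 222 against 347 and 549 (-1.24 ± 0.30), Mcm3 54 and 128 against 172 and 288 (-1.41 ± 0.42), the single-strand binding protein gene Rpa1 122 and 101 against 272 and 260 (-1.25 ± 0.33) and the ligase gene Lig1 60 and 50 against 123 and 181 (-1.43 ± 0.43). Ccnd1, which encodes cyclin D1 and opens the way into S phase, measured 207 and 251 in Sirt6mKO/mdx, 930 and 1217 in mdx and 352 and 851 in control (-2.22 ± 0.34, adjusted p = 0.000937). Among the fits that left out 1 library, it lost its call in that without Sirt6mKO/mdx replicate 1 (-2.08). Of the 51 replication genes at most 2 were called when 1 library was left out, and none without mdx replicate 2 or Sirt6mKO/mdx replicate 1. The fold change of Mcm3 was -0.79 without Sirt6mKO/mdx replicate 1 and -2.02 without replicate 2.

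E2F factors switch on replication genes at the start of S phase. Their sites, searched as TTTCGCGC or TTTGGCGC on both strands, were present in 7 of 41 replication gene promoters (17.1%) and in 1.46% of all promoters. The promoter of Mcm5 is shown because it had the most negative fold change of the called replication genes, with capitals marking a pair of overlapping E2F matches, the CRE searched above, and 2 CCAAT boxes, the motif of NF-Y.
Mcm5 promoter (chromosome 8, 75109259 to 75109508, plus strand): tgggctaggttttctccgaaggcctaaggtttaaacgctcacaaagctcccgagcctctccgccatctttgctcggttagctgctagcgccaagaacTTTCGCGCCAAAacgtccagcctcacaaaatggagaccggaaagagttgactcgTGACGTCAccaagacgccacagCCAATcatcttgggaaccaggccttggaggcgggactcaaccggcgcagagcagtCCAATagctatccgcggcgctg
CCAAT in either orientation was present in 40.4% of all promoters, in 25 of 41 replication genes (61%), in 27 of 36 mitosis genes (75%) and in 17 of 21 genes of cholesterol and fatty acid synthesis (81%). Among all called lower genes its share was 40.3%, near that of all promoters.

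The list of mitosis and kinetochore genes had the lowest median of the lists in the plot of gene lists (-0.88), with 3 of 42 called lower and none higher. The proliferation marker Mki67 measured 99 and 162 in Sirt6mKO/mdx, 252 and 548 in mdx and 39 and 80 in control (-1.55 ± 0.42, adjusted p = 0.0342). Top2a, the topoisomerase that untangles sister chromatids, measured 71 and 128 against 229 and 369 (-1.60 ± 0.42), and the kinetochore motor gene Cenpe measured 25 and 58 against 105 and 158 (-1.73 ± 0.51). These genes lay in Sirt6mKO/mdx between mdx and control or near control. At most 1 of the 42 was called when 1 library was left out, and Mki67 lay at -0.99 without mdx replicate 2. After centring by GC content Mki67 (-1.38), Top2a (-1.35) and Cenpe (-1.47) were not called. Cenpe lay at -1.14 without Sirt6mKO/mdx replicate 1 and at -2.32 without replicate 2. Replication histone genes, which are transcribed in S phase into mRNAs without a poly(A) tail, went the other way, with 10 of 58 higher and none lower (median 0.65). Hist1h4c measured 969 and 622 against 208 and 159 (2.09 ± 0.45). Its call was lost in every fit that left out 1 library (1.77 to 2.41), where between 0 and 3 of the 58 genes were called higher. Small noncoding RNAs, which also lack a poly(A) tail, took a larger share of the Sirt6mKO/mdx libraries, and the part of such a difference in the histone values was not tested.

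Genes of the extracellular matrix and matricellular proteins were lower for 17 of 60 and higher for 5 (median -0.77). MuSCs build part of their own niche from such proteins. Vcan, which encodes the proteoglycan versican, measured 187 and 209 in Sirt6mKO/mdx, 745 and 1057 in mdx and 174 and 341 in control (-2.16 ± 0.31, adjusted p = 0.000576), and kept its call in every fit that left out 1 library. Igfbp5, an insulin-like growth factor binding protein, measured 777 and 1242 in Sirt6mKO/mdx, 4490 and 4270 in mdx and 4444 and 6063 in control (-2.15 ± 0.31) and lost its call without Sirt6mKO/mdx replicate 1 (-1.82). Col15a1, a basement membrane collagen, measured 1187 and 862 in Sirt6mKO/mdx, 3226 and 3026 in mdx and 2592 and 4207 in control (-1.63 ± 0.30), and lost its call without Sirt6mKO/mdx replicate 1 (-1.86) or 2 (-1.40). Both Igfbp5 and Col15a1 were thus below mdx and control alike. The fibrillar collagen gene Col1a1 measured 1136 and 747 against 2013 and 1898 (-1.08 ± 0.27, lost in every fit that left out 1 library, -1.39 to -0.78). It was the only one of 11 fibro-adipogenic markers to be called, and their sum was 11483 and 9607 against 15591 and 8966. The 5 genes that rose included Cyr61 (5836 and 5246 against 811 and 1434, 2.36 ± 0.34) and Thbs1 (1328 and 1236 against 329 and 278, 2.08 ± 0.36), matricellular proteins that are early targets of SRF and YAP. Thbs1 lost its call without mdx replicate 2 (1.96) and without Sirt6mKO/mdx replicate 1 (2.03) or 2 (2.13). Without 1 library at a time, 2 to 7 of the 60 genes were called lower and 2 or 3 higher, the fewest without Sirt6mKO/mdx replicate 1.

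Of 44 growth factors, receptors and their direct targets 9 rose and 3 fell (median 0.22, and -0.35 when libraries were scaled to their totals). Igf1, which promotes muscle growth, measured 118 and 84 in Sirt6mKO/mdx, 623 and 253 in mdx and 243 and 819 in control (-1.99 ± 0.48) and lost its call without mdx replicate 1 (-1.34) and without Sirt6mKO/mdx replicate 1 (-2.23) or 2 (-1.74), while it lay at -2.63 without mdx replicate 2. The higher genes included Id3 at 2646 and 1765 against 753 and 419 (1.94 ± 0.31), Id1 at 333 and 400 against 113 and 52 (2.23 ± 0.41) and Smad7, the inhibitory SMAD, at 277 and 281 against 54 and 68 (2.18 ± 0.29). The groups did not overlap in these 3 genes. Smad7 was called in every fit that left out 1 library. Id3 was not called without Sirt6mKO/mdx replicate 1 (1.65), and Id1 was not called without mdx replicate 2 (1.68) or without Sirt6mKO/mdx replicate 1 (2.37) or 2 (2.10). With 1 library left out, 3 to 6 of the 44 genes were called higher and at most 1 lower.

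Cholesterol and fatty acid synthesis genes, most of them targets of the SREBP factors, were lower for 11 of 31 and higher for 1 (median -0.79). Nsdhl, a sterol dehydrogenase, measured 31 and 50 in Sirt6mKO/mdx, 252 and 355 in mdx and 169 and 130 in control (-2.89 ± 0.35, adjusted p = 0.000117). The stearoyl-CoA desaturase gene Scd2 measured 325 and 385 in Sirt6mKO/mdx, 1588 and 3065 in mdx and 743 and 1691 in control (-2.64 ± 0.36). In both genes the Sirt6mKO/mdx libraries lay below mdx and control, and both kept their calls in every fit that left out 1 library. The fatty acid elongase gene Elovl6 measured 80 and 65 against 276 and 330 (-2.05 ± 0.39). It was not called without mdx replicate 2 (-1.92) or Sirt6mKO/mdx replicate 1 (-2.20) or 2 (-1.90). Insig2, which retains SREBP in the ER, was the gene that rose (1065 and 949 against 529 and 423, 1.09 ± 0.25), was named after its values were seen and was not called in any fit that left out 1 library (0.93 to 1.25). Without 1 library at a time, 2 to 7 of the 31 genes were called lower, the fewest without Sirt6mKO/mdx replicate 2.

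Interferon-stimulated genes were lower for 7 of 37 and higher for 1 (median -0.59). Gbp7, a guanylate-binding GTPase, measured 93 and 43 in Sirt6mKO/mdx, 250 and 268 in mdx and 39 and 56 in control (-2.01 ± 0.40, adjusted p = 0.00656). It was called without Sirt6mKO/mdx replicate 1 (-2.56), but not without Sirt6mKO/mdx replicate 2 (-1.47), mdx replicate 1 (-2.06) or mdx replicate 2 (-1.97). Ifit1, which binds uncapped viral RNA, measured 25 and 22 against 172 and 93 (-2.38 ± 0.67), and Oasl2, a relative of the 2'-5' oligoadenylate synthases, measured 96 and 47 against 210 and 197 (-1.58 ± 0.43). Neither was called in any fit that left out 1 library (-2.82 to -1.94 and -2.09 to -1.07), and Ifit1 was not called after centring by GC content (-2.13). Irf1, the transcription factor of the family that NF-kB and STAT also induce, was the gene that rose (696 and 771 against 219 and 242, 1.67 ± 0.26), and lost its call without Sirt6mKO/mdx replicate 2 (1.59). With 1 library left out, none of the 37 genes was called lower except 2 without Sirt6mKO/mdx replicate 1, and 4 were called lower after centring by GC content. The interferon-stimulated response element was searched as GAAA, any 2 bases and GAAA on both strands and was present in 11 of 25 promoters of the list (44%), in 2.98% of all promoters, in 5.94% of called lower genes and in 2.73% of called higher genes. The promoter of Gbp7 is shown as a called gene that holds it, in capitals on the opposite strand, 53 bases before the start.
Gbp7 promoter (chromosome 3, 142530086 to 142530335, plus strand): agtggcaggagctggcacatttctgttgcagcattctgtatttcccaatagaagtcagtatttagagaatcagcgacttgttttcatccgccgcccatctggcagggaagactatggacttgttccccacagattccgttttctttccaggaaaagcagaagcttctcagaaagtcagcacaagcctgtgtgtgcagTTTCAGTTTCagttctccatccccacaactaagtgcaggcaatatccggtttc
Proteasome subunit genes were lower for 4 of 38 and higher for none (median -0.35). The ATPase subunit gene Psmc1 measured 111 and 155 against 393 and 311 (-1.41 ± 0.33), and the scaffold subunit gene Psmd1 measured 234 and 298 against 622 and 689 (-1.31 ± 0.30). None of the 38 was called in any fit that left out 1 library.

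**Figure D3:**
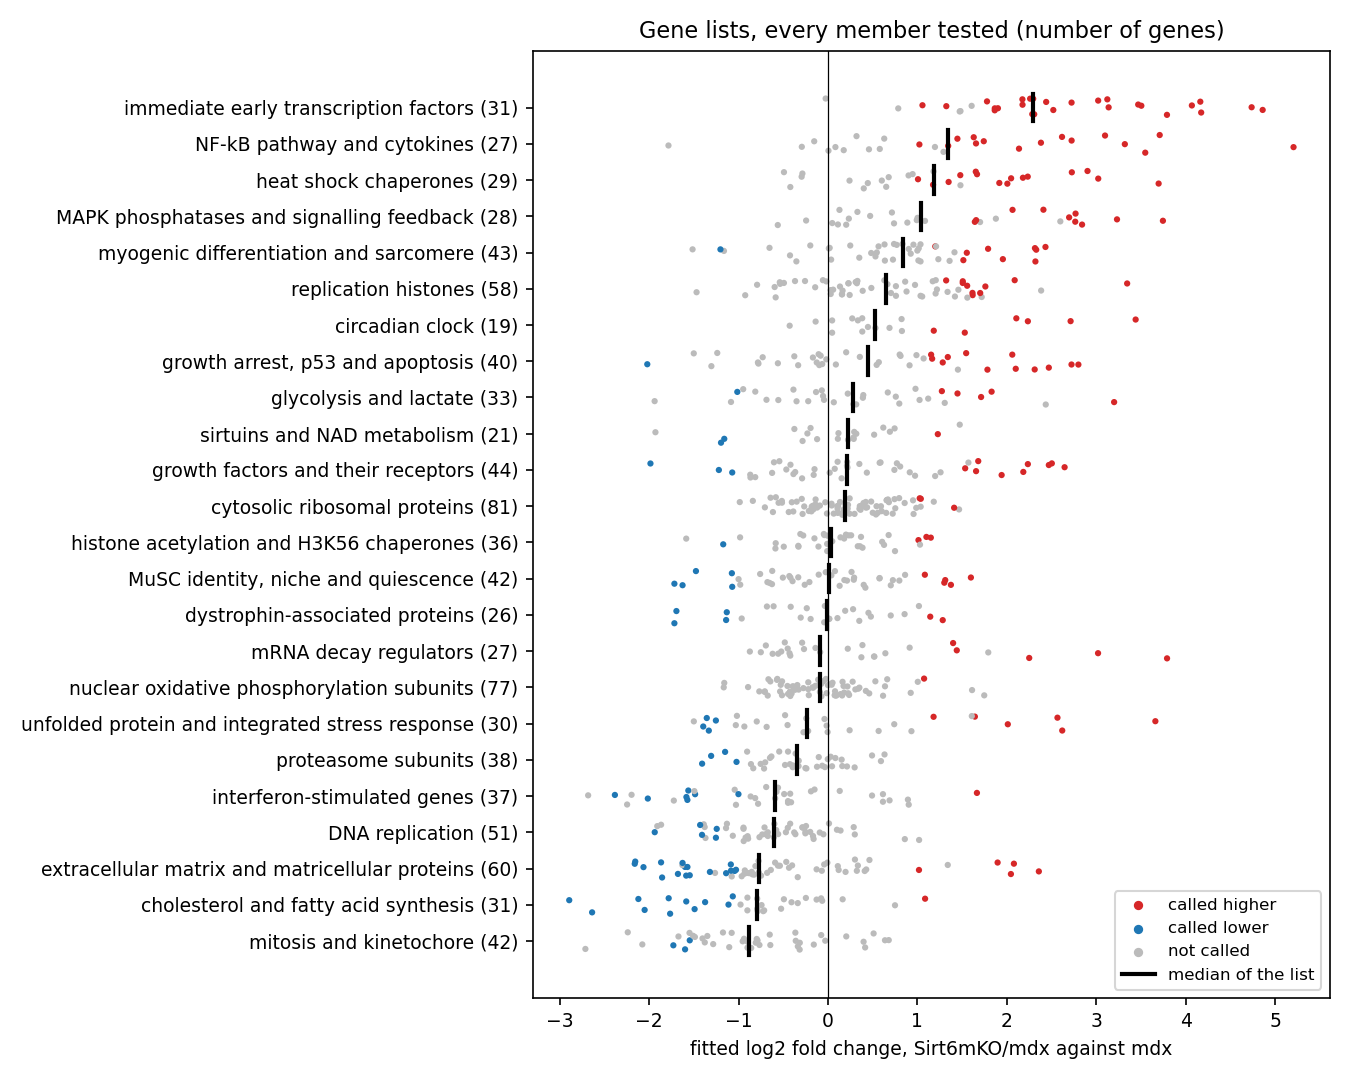
Fitted log2 fold change of Sirt6mKO/mdx against mdx (x axis) for every tested member (points) of each gene list (rows, with the number of genes), in order of the list's median (black bar). Lists of cell type markers and of ubiquitin genes were left out. Among the lists shown, immediate early genes lie at the top with a median of 2.29 and mitosis genes at the bottom with -0.88. Red and blue points are genes called higher and lower.

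Some named genes lay outside the lists. Dcx, which encodes the microtubule-binding protein doublecortin and is known to mark regenerating muscle, measured 135 and 182 in Sirt6mKO/mdx, 773 and 899 in mdx and 95 and 113 in control (-2.40 ± 0.27, adjusted p = 7.03e-05). Rab6b, a neuronal Golgi GTPase, had the most negative fold change of the named genes, with 15 and 7 in Sirt6mKO/mdx, 117 and 112 in mdx and 156 and 157 in control (-3.35 ± 0.44). Fam198b, a Golgi membrane protein, measured 76 and 58 in Sirt6mKO/mdx, 623 and 421 in mdx and 225 and 649 in control (-2.93 ± 0.40). These 3 kept their calls in every fit that left out 1 library. Dcx was lower than in mdx and close to control, while Rab6b and Fam198b were below both groups.

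The remaining named lower genes were Cplx2, Nrk, Hn1l, Slfn9 and Lgals3bp, with log2 fold changes from -2.61 to -2.19. Cplx2 encodes a complexin of synaptic vesicle fusion and measured 31 and 34 against 164 and 152, with 51 and 47 in control. It lost its call without mdx replicate 1 (-2.19) or Sirt6mKO/mdx replicate 1 (-2.18). Lgals3bp, a secreted galectin ligand, measured 59 and 6 in Sirt6mKO/mdx against 163 and 95, so that the Sirt6mKO/mdx libraries were far apart, and its fold change was -1.06 without Sirt6mKO/mdx replicate 2, where the call was lost as it was without either mdx library (-2.23 and -3.00), and -4.16 without Sirt6mKO/mdx replicate 1. Nrk, a kinase of the embryo, measured 15 and 30 against 67 and 151 and was not called in any fit that left out 1 library (-2.77 to -1.61) or after centring by GC content (-1.93). Hn1l (15 and 47 against 145 and 170) lost its call without either mdx library (-2.62 and -2.40) or Sirt6mKO/mdx replicate 1 (-1.72), and Slfn9 (25 and 9 against 83 and 114) without either mdx library (-2.83 and -2.38) or Sirt6mKO/mdx replicate 2 (-1.92). Each lay at -3.30 without the other Sirt6mKO/mdx library.

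Among higher genes, Vstm2l, an immunoglobulin-domain protein, was the named gene with a large rise that was also far above control. It measured 549 and 343 in Sirt6mKO/mdx, 20 and 29 in mdx and 5 and 0 in control (4.12 ± 0.73, adjusted p = 0.00295), with a fold change of 3.02 after centring by GC content. It lost its call without mdx replicate 1 (3.86) and without Sirt6mKO/mdx replicate 1 (3.78) or 2 (4.45). Frat2, which stabilises beta-catenin by binding GSK3, measured 68 and 143 against 6 and 5 (3.94 ± 0.62) and was not called without Sirt6mKO/mdx replicate 2 (3.41). The albumin gene Alb, a liver gene, measured 390 and 24 in Sirt6mKO/mdx, 1 and 6 in mdx and 23 and 3 in control. It was called over all libraries (4.72 ± 1.16) but its level rests on Sirt6mKO/mdx replicate 1. Without that library the fold change was 2.74 and not called, nor was Alb called without mdx replicate 1 (3.82) or 2 (5.63), while it lay at 6.71 without Sirt6mKO/mdx replicate 2.

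**Figure D4:**
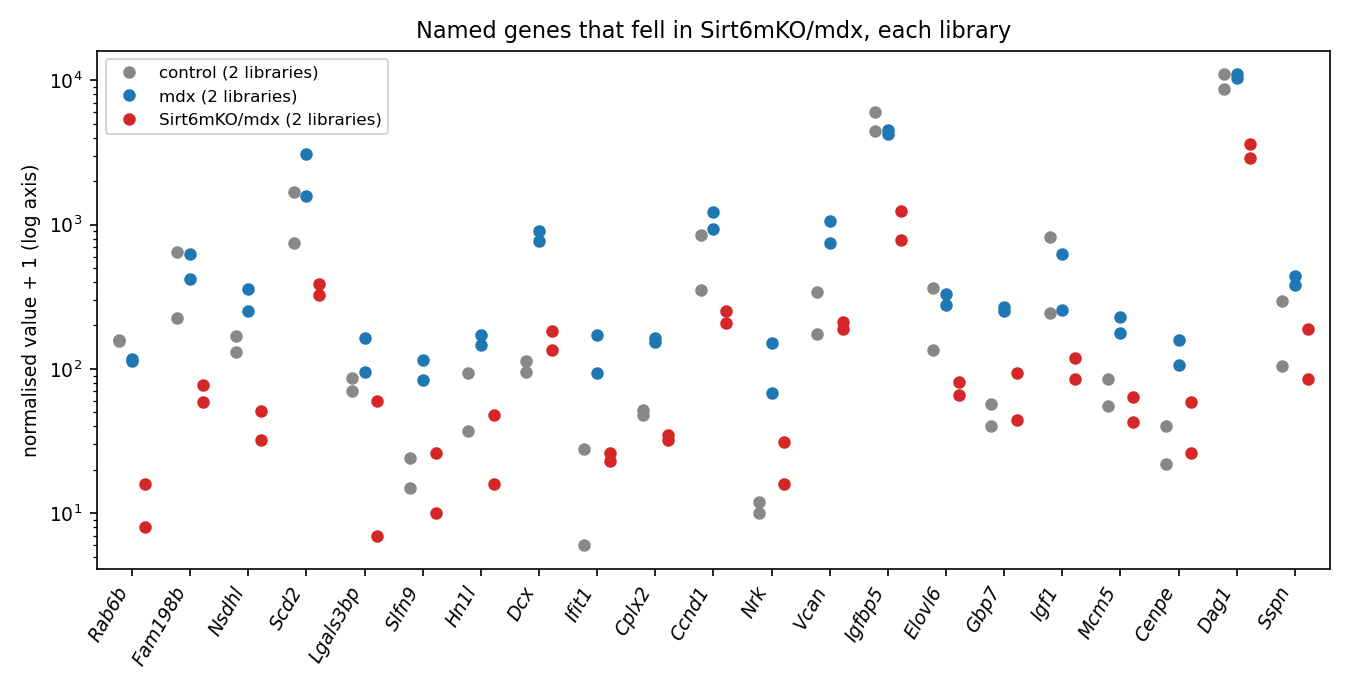
Normalised value plus 1 (y axis, log scale) of 21 named genes with a strongly negative fold change, in each library (points) of the control (grey), mdx (blue) and Sirt6mKO/mdx (red) groups. Both red points lie below both blue points in every gene. The grey points lie near or below the red points in several genes, among them Nrk, Gbp7, Ifit1, Dcx, Slfn9 and Cenpe, and above the blue points in Rab6b.

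In the families of cytosolic ribosomal protein genes and nuclear oxidative phosphorylation genes, few genes were called in the scaling of the authors, and none of the calls was lower. Of 81 cytosolic ribosomal protein genes 3 rose and none fell (median 0.19), and of 77 nuclear genes for oxidative phosphorylation 1 rose and none fell (median -0.09). When libraries were scaled to their totals, no gene of either family was called higher, 12 ribosomal protein genes (median -0.44) and 20 oxidative phosphorylation genes (median -0.71) were called lower, and the median of all protein-coding genes was -0.66. Rplp1 and Rplp2, the acidic stalk proteins, measured 2411 and 2530 against 1362 and 1061 (1.04 ± 0.27) and 2256 and 1757 against 999 and 956 (1.03 ± 0.28). Both calls were lost in every fit that left out 1 library (0.86 to 1.22 and 0.85 to 1.21) and after centring by GC content (0.77 and 0.86). Ribosomal protein genes have near-identical pseudogenes, so that their values are uncertain.

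Fold changes moved with the base composition of the genes. Genes were put into 5 equal bins. In the bin with the lowest GC content in their exons (31.0% to 44.1%) 2.29% were called higher and 5.06% lower, and in the bin with the highest (55.7% to 71.3%) 8.24% were higher and 0.92% lower. The median log2 fold change of these bins was -0.29 and 0.32. After the log2 values of each library were centred by GC content and the fit was repeated, 557 higher and 298 lower protein-coding genes were called. Of the 1039 calls, 717 (69.0%) were shared. The list medians were then 2.15 for immediate early genes, 1.31 for heat shock genes, 1.26 for NF-kB genes, -0.76 for cholesterol and fatty acid genes and -0.88 for matrix genes. The median of glycolysis genes fell to 0.07, that of growth arrest genes to 0.18, and no mitosis gene was called. Of the named genes 19 lost their call under this centring, and where that holds for a gene described here the value is given beside it. The cause of the relation to GC content was not tested. On the X chromosome, which carries the mdx mutation in both groups, 2.29% of 436 genes were called higher and 5.05% lower. In the 10 Mb on either side of Sirt6 14 of 223 genes were higher and 11 lower (11.2% in all, beside 7.63% of all protein-coding genes tested).

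**Figure D5:**
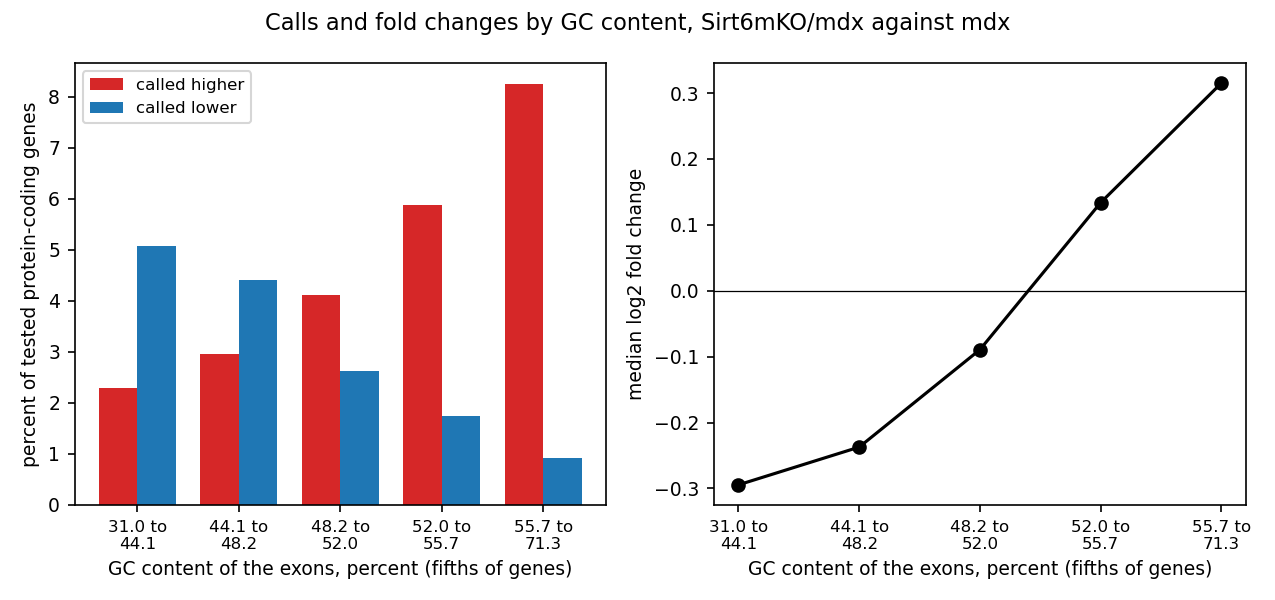
Share of tested protein-coding genes called higher (red bars) or lower (blue bars) in Sirt6mKO/mdx (left), and the median log2 fold change (right), in 5 equal bins of genes by the GC content of their exons (x axis, percent). The share called higher goes from 2.29% in the lowest to 8.24% in the highest bin, and the share called lower from 5.06% to 0.92%.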

How the data were processed

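RNA of sorted MuSCs was measured by Ion Torrent sequencing of total RNA after removal of ribosomal RNA. Per the study's methods and the submitters' processing notes, Reaper was used for trimming, STAR for alignment to GRCm38 (version 2.4.2a in the notes, while the methods give another version) and featureCounts 1.4.5-p1 for counts per Ensembl gene. The authors left out reads on several genes or places. Use of strand was not stated, so values of overlapping genes are uncertain. The deposited values are whole numbers, gene counts divided by a size factor and rounded by the authors, and were treated as a score (normalised read count), not as raw counts. A count model as in DESeq2, which the authors used, was therefore not run. Size factors, recovered from the gaps in the whole numbers, ranged from 0.537 to 1.53, and value times factor gave the approximate reads. A floor of 3 reads corresponds to a value of 1.97 to 5.59. This floor covers counting error only.

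Log2(value + 1) was used for the 15915 genes whose mean over 6 libraries reached 5, and was fitted with limma 3.58.1 (R 4.3.3; prior variance following the mean, all 3 groups in 1 fit, no block). Errors of fold changes are SE. P-values are two-sided, Benjamini-Hochberg adjusted over all genes tested. Fold changes are on the log2(value + 1) scale and understate the change of low genes. The labels do not say whether the 2 libraries of a group came from separate mice. The study's methods speak of biological replicates. On simulated data with 200 changed of 15676 genes, the fit recovered 16.4% of 2-fold, 91.0% of 4-fold and 100% of 8-fold changes. In the same data 4 unchanged genes were called. These data were drawn with a negative binomial dispersion of 0.05. How far these values hold for the libraries used here was not tested. The members and gene lists were chosen with earlier results of these data known. Named genes were the 12 highest and 12 lowest called protein-coding genes whose mean reached 50 and whose groups did not overlap (predicted genes, placeholder symbols and pseudogenes left out), up to 4 called members of each list (6 for immediate early, heat shock, replication and mitosis genes) and a fixed set of sirtuin, dystrophin, myogenic, cell cycle and glycolytic genes. GC content and positions came from GENCODE vM21 (98.5% of gene identifiers matched). Some genes that this rule names are not reported here.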

Additional observations from a re-analysis of the deposited data

Results flagged for a closer look

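Small noncoding RNA genes, which enter none of the comparisons of protein-coding genes, took 44.43% and 47.96% of the summed values in the Sirt6mKO/mdx libraries, above the 24.0% and 15.6% of the control libraries and the 26.5% and 19.0% of mdx. The 7SK RNA gene Rn7sk, a regulator of transcription elongation, took 6.169% and 12.57% of the summed values in Sirt6mKO/mdx, against 1.41% and 1.35% in control and 4.79% and 3.80% in mdx. Of 258 snoRNA genes tested, 103 were called higher in Sirt6mKO/mdx than in mdx and none lower (median log2 fold change 1.35), and of 200 snRNA genes 46 were higher and none lower (median 2.0). No cause of these differences was tested.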

How the results depend on the processing

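The counts of 638 higher and 401 lower protein-coding genes stayed within 1.5 times under pseudocounts of 0.1 or 5, a minimum mean of 50, 3 other scalings over protein-coding genes, voom, a robust prior, a fit of protein-coding genes or of the 4 libraries only, and GC centring. They moved to 134 and 14 with no minimum mean, to 309 and 2890 with total scaling over all genes, and to 0 and 0 with one prior variance for all genes, where limma gave 2479 protein-coding genes at an unadjusted p under 0.05. Leaving out a replicate gave 150 to 293 higher and 21 to 52 lower genes. Of the named called genes, 32 of 75 higher and 6 of 40 lower kept their call whichever library was left out. Same-numbered libraries did not deviate together (r = 0.009 between mdx and Sirt6mKO/mdx), so the numbers were not taken to pair the samples. A fit with the replicate number as a block called 731 higher and 455 lower, and changed no call of a named gene. None of the named called genes reversed under the alternatives run. With total scaling over all genes the fold changes of Sirt7 (-0.33), Sirt4 (-0.32), Pdk1 (-0.33), Pax7 (-0.36), Myf5 (-0.44), Sirt3 (-0.51), Utrn (-0.52), Ldha (-0.56) and Myod1 (-0.59) turned negative, and Myod1 also with GC centring (-0.32). Leaving out a replicate turned the sign at 1 end of the range for Pdk1 (-0.046 to 0.61), Myf5 (-0.12 to 0.48), Sirt3 (-0.021 to 0.24), Utrn (-0.094 to 0.31), Ldha (-0.24 to 0.37), Myod1 (-0.45 to 0.52), Sirt6 (-0.27 to 0.025), Sirt2 (-0.62 to 0.049) and Myog (-1.11 to 0.40). The cause of these changes was not tested. The comparison had 2 libraries a group and 2043732 to 6052601 protein-coding reads. In the simulated data few 2-fold changes were called, where the rule itself asks for an absolute log2 fold change of at least 1. The parts of library number, depth and rule in this were not tested.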

Other observations

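The genes in this paragraph were grouped after their values were seen, and their counts are descriptions. All 9 subunit genes of the COPI coat, which carries vesicles back from the Golgi to the ER, were below mdx in both Sirt6mKO/mdx libraries, and 4 were called (median log2 fold change -0.93, and -0.79 after GC centring). Arcn1 measured 387 and 616 in Sirt6mKO/mdx against 1589 and 1130 in mdx, and Copb2 520 and 678 against 1567 and 1176. Of 11 COPII coat genes 1 was called, Sec31a (528 and 499 against 1100 and 1130). Of 10 oligosaccharyltransferase genes, which add sugars to nascent proteins, 3 were called lower, among them Rpn2 (197 and 220 against 633 and 610) and Rpn1 (353 and 398 against 974 and 875). Of 18 genes of translocation into the ER 2 were lower and 1 higher.

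Interleukin-6 family signalling, also grouped after values were seen, had 8 of 15 genes tested called higher and none lower (median 1.57). Stat3, the transcription factor of this pathway, measured 3283 and 3317 in Sirt6mKO/mdx, 460 and 783 in mdx and 5056 and 3183 in control, and its feedback inhibitor Socs3 measured 2693 and 4302, 432 and 636, and 2414 and 1821. Osmr, the oncostatin M receptor, measured 823 and 881 against 263 and 267. The receptor and kinase genes Il6st, Lifr, Jak1 and Jak2 were not called, with log2 fold changes between -0.62 and 0.12.

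Of 16 genes for CLK kinases and the SR splicing factors they phosphorylate, 5 were called higher and none lower (median 0.52, and -0.11 when libraries were scaled to their totals). Clk1 measured 6034 and 5630 in Sirt6mKO/mdx, 2007 and 1720 in mdx and 3269 and 2148 in control, and Srsf5 measured 3086 and 2321, 1186 and 935, and 2533 and 2127.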
